A study of Mus musculus with 6 samples.

Results

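The enzymes described here prepare collagen and elastin for covalent crosslinking. They are the 5 lysyl oxidases Lox, Loxl1, Loxl2, Loxl3 and Loxl4 and the 3 lysyl hydroxylases Plod1, Plod2 and Plod3. All 8 were found by symbol among the 55401 genes of the table, and all 8 passed the filter on low counts, which left 13590 genes. The RNA sequenced came from cancer-associated fibroblasts (CAFs), the fibroblasts of a tumour, grown in culture on fibronectin-coated plates in medium with serum. The cells came from tumours that formed after mouse tumour organoids were placed in the rectum. Hosts were either wild type (WT) or Thbs2KO, with a knockout of Thbs2, the gene of the matricellular glycoprotein thrombospondin-2. There were 3 libraries of each genotype. All came from tumour-bearing hosts, so no library stands for fibroblasts outside a tumour, and the labels name no allele, strain, age or organoid genotype. Nothing in the labels tells whether replicates came from different animals, so the p-values speak only of how these libraries scatter, part or all of which may be technical.

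Lysyl oxidases are secreted copper enzymes. They oxidise the side chains of lysine and hydroxylysine in collagen and elastin to aldehydes, which then condense into crosslinks between molecules. Lysyl hydroxylases act earlier, in the endoplasmic reticulum, where they need iron, 2-oxoglutarate and ascorbate. Plod1 encodes the enzyme that hydroxylates lysines of the collagen triple helix, Plod2 the one that acts on the telopeptides at the chain ends, and Plod3 an enzyme that also adds glucose to hydroxylysine-linked galactose. In fibroblasts of solid tumours, crosslinking by these enzymes is known for making the matrix stiffer.

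Total expected counts ran from 19649066 to 24417464 per library. Thbs2 itself measured 2327, 4166 and 3705 normalised counts (CPM, TMM-scaled) in WT replicates 1, 2 and 3 and 538.2, 424.7 and 412.0 CPM in Thbs2KO replicates 1, 2 and 3, with no overlap (two-sided exact permutation p = 0.1, the smallest that 3 against 3 allows). On the first principal component, with 46.0% of the variance, WT libraries lay at -39.8 to -11.2 and Thbs2KO libraries at 17.9 to 45.9. Thbs2KO replicate 3 was the highest there. On the second, with 27.9%, WT replicate 1 lay farthest out at 44.9. Thbs2KO replicate 3 lay at 16.3 and the other libraries at -22.1 to -4.18. Thbs2KO replicates 1 and 2 were more alike than any other pair, at 3.78 in chi-square divided by its degrees of freedom against 15.7 to 121.8 for the other pairs. The 10 fibroblast markers were all present, with a summed level of 30662 to 33952 CPM in WT and 30116 to 41085 CPM in Thbs2KO, most of it from 3 collagen genes. Of the 10, Pdgfra was higher in every Thbs2KO library (750.5, 555.9 and 388.0 CPM in WT, then 1013, 947.0 and 1527 CPM), Col1a1 was lower in every one, and edgeR called 0. Summed epithelial markers were low and did not overlap, at 24.3 to 33.8 CPM in WT and 12.3 to 17.9 CPM in Thbs2KO; of 7 tested, 2 were lower in every Thbs2KO library and edgeR called 0. Pericyte and smooth muscle markers summed to 406.9 to 1415 CPM in WT and 428.6 to 568.0 CPM in Thbs2KO, with 1 of 9 tested lower in every Thbs2KO library. Endothelial markers summed to 11.8 to 32.29 CPM in WT and 32.32 to 50.6 CPM in Thbs2KO, narrowly without overlap, though neither gene tested was apart by itself. Most of the sum was the receptor gene Kdr in every library except WT replicate 1. There Tek at 8.87 CPM exceeded Kdr at 2.50 CPM, while Cldn5 was at 0 in all libraries. Haematopoietic markers summed to 3.94 to 14.9 CPM in WT and 2.10 to 9.24 CPM in Thbs2KO with Cd3e at 0, and 1 of 3 tested was lower in every Thbs2KO library. Glial and neuronal markers summed to 14.5 to 18.2 CPM in WT and 9.39 to 13.4 CPM in Thbs2KO, without overlap and with Sox10 at 0. Of these, 1 of 2 tested was lower in every Thbs2KO library. The part of these other cell types in the results below was not tested, and in such bulk RNA a change in the share of a cell type and a change in RNA per cell cannot be told apart.

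Of the 8 enzyme genes, 3 separated the genotypes completely: Loxl2 and Plod3 were lower and Plod1 was higher in every Thbs2KO library than in any WT library. None of the 8 passed the test over all genes (edgeR, quasi-likelihood F, adjusted p below 0.05 by Benjamini-Hochberg), which called 1.09% of genes, 0.552% higher and 0.537% lower in Thbs2KO. The adjusted p of these 3 lay just above the threshold, at 0.0712 for Loxl2, 0.0706 for Plod3 and 0.0666 for Plod1. With 19.7% of all tested genes showing no overlap between the groups, 9.37% higher and 10.3% lower in Thbs2KO, the 3 of 8 enzyme genes are described by name and no more is read from their number. At an unadjusted p under 0.05 the fit had 1 enzyme gene higher and 2 lower, beside 5.72% and 7.56% of all genes. DESeq2 called Plod1 higher and Loxl2 and Plod3 lower, beside 5.15% of all genes, 2.22% higher and 2.93% lower. By limma-voom 0 of the 8 were called, beside 147 of all 13590 genes, 73 higher and 74 lower. The median log2 fold change was -0.18 over the 8 enzyme genes and -0.00377 over all genes tested.

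**Figure D1:**
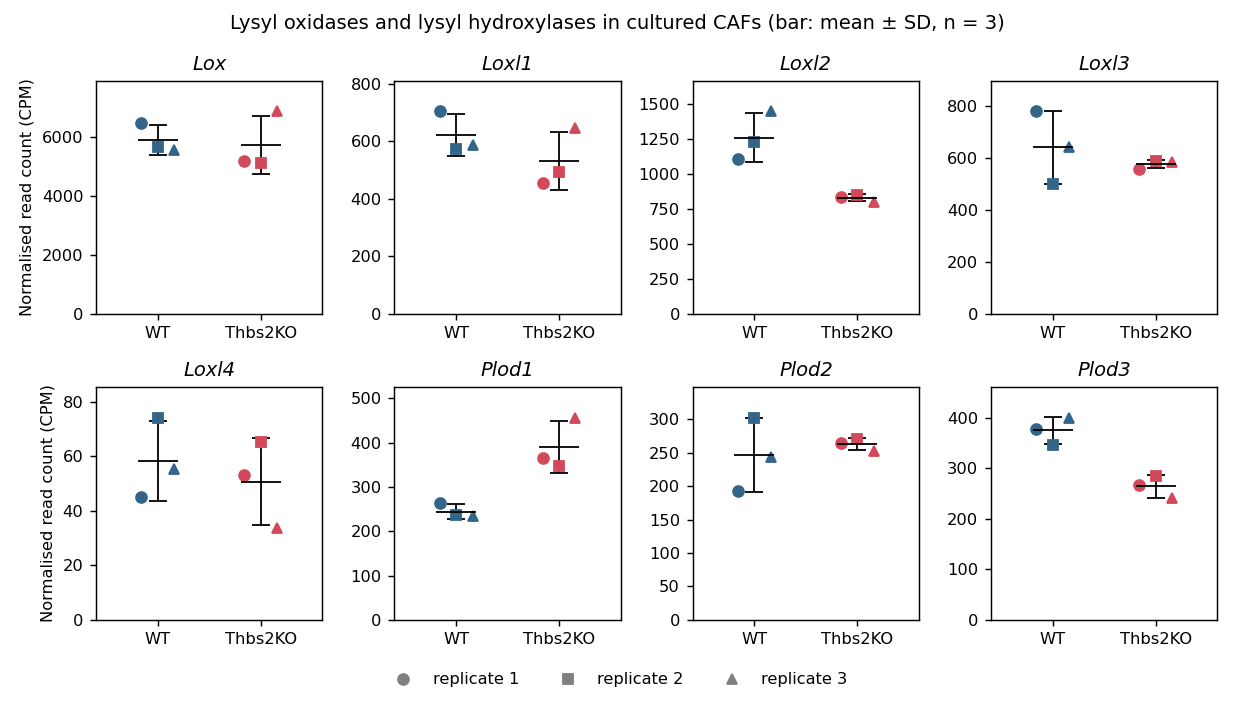
Normalised read count (CPM, linear axis from 0) of each enzyme gene in 3 WT (blue) and 3 Thbs2KO (red) libraries, with the mean and SD as bars and a marker shape for each replicate number. The groups are apart for Loxl2, Plod1 and Plod3 and overlap for the other 5 genes.

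Among the lysyl oxidases, Lox was by far the most abundant. Lox (ENSMUSG00000024529.14, chromosome 18, 52516067 to 52529867, minus strand, mm10) encodes the founding member of the family, whose propeptide is cut off outside the cell. It measured 6481, 5662 and 5562 CPM in WT and 5198, 5134 and 6873 CPM in Thbs2KO. Thbs2KO replicate 3 was the highest of the 6 libraries and Thbs2KO replicates 1 and 2 the lowest, so the groups overlapped. The log2 fold change was -0.04 (SE 0.147, 95% interval -0.39 to 0.31; edgeR, Benjamini-Hochberg adjusted p = 0.95). Per kilobase of exon, Lox ranked 22 among 13584 tested genes with a known length. The 5 lysyl oxidases together took 0.804% to 0.911% of the normalised reads in WT and 0.71% to 0.894% in Thbs2KO.

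Loxl2 (ENSMUSG00000034205.16, chromosome 14, 69609068 to 69695834, plus strand) encodes a lysyl oxidase with scavenger receptor domains, known for crosslinking collagen IV of basement membranes as well as fibrillar collagen. It measured 1105, 1226 and 1446 CPM in WT and 837.0, 847.7 and 801.7 CPM in Thbs2KO. The 3 Thbs2KO libraries lay close together and below the lowest WT library, which was WT replicate 1. The mean was 1259 ± 173 CPM in WT and 828.8 ± 24.1 CPM in Thbs2KO (SD over 3 libraries each). The log2 fold change was -0.60 (SE 0.114, 95% interval -0.88 to -0.33; edgeR, Benjamini-Hochberg adjusted p = 0.0712). DESeq2 gave an adjusted p of 0.000246. Without WT replicate 1 the edgeR adjusted p was 0.0325, and over the other libraries left out in turn it ran up to 0.278. The fit without WT replicate 1 called 397 of 13738 genes, against 148 of 13590 in the main fit.

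The other 3 lysyl oxidases overlapped between the groups. Loxl1 (ENSMUSG00000032334.10, chromosome 9, 58287738 to 58313186, minus strand), whose product is needed for elastic fibre upkeep, measured 704.8, 575.3 and 586.8 CPM in WT and 454.9, 493.3 and 648.1 CPM in Thbs2KO. Its high Thbs2KO library was again replicate 3, and its log2 fold change was -0.23 (95% interval -0.60 to 0.15; edgeR, Benjamini-Hochberg adjusted p = 0.63). With WT replicate 1 and Thbs2KO replicate 3 both left out, Loxl1 passed the test (edgeR, Benjamini-Hochberg adjusted p = 0.0203). That setting called 1519 of 13617 genes, against 148 of 13590 in the main fit. The labels do not single out these libraries, which had the highest values on the second principal component of these same data. Loxl3 (ENSMUSG00000000693.10, chromosome 6, 83034173 to 83052562, plus strand), another scavenger receptor domain enzyme, measured 778.6, 498.9 and 642.0 CPM in WT and 557.9, 587.5 and 582.1 CPM in Thbs2KO. The 3 Thbs2KO values lay inside the WT range, with a log2 fold change of -0.15 (95% interval -0.53 to 0.23; edgeR, Benjamini-Hochberg adjusted p = 0.773). Loxl4 (ENSMUSG00000025185.14, chromosome 19, 42593982 to 42612813, minus strand), of the same subgroup, was the least abundant, at 45.2, 74.3 and 55.2 CPM in WT and 53.3, 65.2 and 33.7 CPM in Thbs2KO. Its log2 fold change was -0.20 with the widest interval of the 8 enzyme genes (-0.86 to 0.46; edgeR, Benjamini-Hochberg adjusted p = 0.846). All 5 lysyl oxidases thus had a negative value in the fit, but for Lox, Loxl3 and Loxl4 the sign changed when single libraries were left out.

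Among the lysyl hydroxylases, Plod1 and Plod3 differed in opposite directions. Plod1 (ENSMUSG00000019055.15, chromosome 4, 147909753 to 147936767, minus strand) measured 262.9, 236.1 and 233.3 CPM in WT and 365.2, 347.3 and 456.5 CPM in Thbs2KO. Every Thbs2KO library was above the highest WT library, and Thbs2KO replicate 3 was the highest of all. The mean was 244.1 ± 16.3 CPM in WT and 389.7 ± 58.6 CPM in Thbs2KO (SD over 3 libraries each). The log2 fold change was 0.67 (SE 0.122, 95% interval 0.38 to 0.97; edgeR, Benjamini-Hochberg adjusted p = 0.0666). DESeq2 gave an adjusted p of 5.86e-05, and with no filter on low counts the edgeR adjusted p was 0.0231. The fit with no filter called 245 of 22365 genes, against 148 of 13590 in the main fit. With 1 library left out, the edgeR adjusted p of Plod1 ran from 0.0561 to 0.257.

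Plod3 (ENSMUSG00000004846.10, chromosome 5, 136987019 to 136996648, plus strand) measured 378.1, 346.2 and 400.3 CPM in WT and 267.4, 283.8 and 240.4 CPM in Thbs2KO. All 3 Thbs2KO libraries were below the lowest WT library, and Thbs2KO replicate 3 was the lowest of the 6. The mean was 374.9 ± 27.2 CPM in WT and 263.8 ± 21.9 CPM in Thbs2KO (SD over 3 libraries each). The log2 fold change was -0.51 (SE 0.095, 95% interval -0.73 to -0.28; edgeR, Benjamini-Hochberg adjusted p = 0.0706). DESeq2 gave an adjusted p of 0.00057. With 1 library left out the edgeR adjusted p of Plod3 ran from 0.0786 to 0.274 and its log2 fold change from -0.56 to -0.44.

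Plod2 (ENSMUSG00000032374.14, chromosome 9, 92542223 to 92608428, plus strand), the telopeptide lysyl hydroxylase, measured 192.3, 302.8 and 243.2 CPM in WT and 265.4, 270.9 and 252.7 CPM in Thbs2KO. WT replicate 1 was the lowest library and WT replicate 2 the highest, and the Thbs2KO libraries lay between them. The log2 fold change was 0.10 (95% interval -0.29 to 0.48; edgeR, Benjamini-Hochberg adjusted p = 0.877), and it was -0.05 without WT replicate 1. Differences in either direction within this interval were not excluded with 3 libraries a group.

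**Figure D2:**
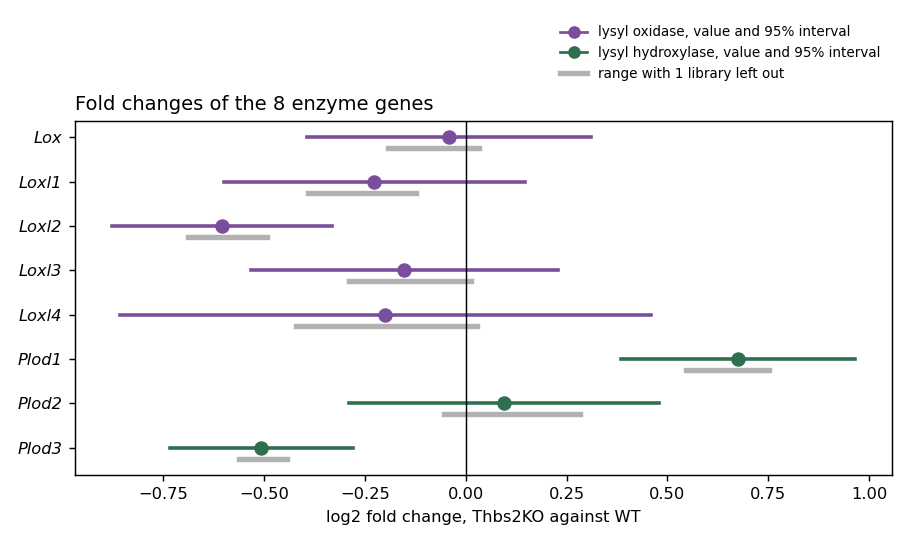
Log2 fold change of each enzyme gene, Thbs2KO against WT (dot), with its 95% interval from the edgeR fit (line) and the range when 1 library is left out (grey bar). The intervals of Loxl2, Plod1 and Plod3 stay on 1 side of 0, and those of the other 5 genes span 0.

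Plod1 and Plod3 are shown by the sequence before their transcription start, since the data set these genes apart in opposite directions. Of the 8 enzyme genes 3 had an entry in the RefSeq promoter table (GRCm38.p6, the same build as mm10). The windows are the 250 bases before the start, 5′ to 3′ on the gene's strand, chr4:147936777-147937026 for Plod1 (minus strand) and chr5:136986769-136987018 for Plod3 (plus strand). Capitals mark matches, on both strands, to ACGTG (a form of the hypoxia-inducible factor core), CAGAC (the SMAD box) and GGGCGG (the GC box bound by SP1). The other form of that core, GCGTG, was not searched for and stands unmarked in the Plod1 and Plod3 windows.
Plod1: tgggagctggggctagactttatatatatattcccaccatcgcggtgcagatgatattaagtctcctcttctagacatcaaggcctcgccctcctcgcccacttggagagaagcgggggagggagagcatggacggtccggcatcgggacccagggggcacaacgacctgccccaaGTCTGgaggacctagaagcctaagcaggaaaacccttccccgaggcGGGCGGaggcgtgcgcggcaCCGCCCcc
Plod3: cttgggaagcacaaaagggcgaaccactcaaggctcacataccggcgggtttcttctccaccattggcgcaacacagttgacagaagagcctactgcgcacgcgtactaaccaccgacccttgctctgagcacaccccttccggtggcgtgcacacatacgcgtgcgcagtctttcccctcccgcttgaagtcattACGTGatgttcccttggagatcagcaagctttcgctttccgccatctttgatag
The Plod1 window held 1 match to CAGAC and 2 to GGGCGG, and the Plod3 window held 1 match to ACGTG. Over all 32851 windows of the same length in the table, 16.6% held ACGTG, 42.2% CAGAC and 32.7% GGGCGG. A match says only that the letters are there.

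The make-up of the lysyl hydroxylases was also taken as shares within a library, which no scaling between libraries can change. Levels of different genes were compared as CPM per kilobase of exon. Plod3 made up 52.9%, 45.7% and 52.7% of the summed lysyl hydroxylase level in the WT libraries and 36.4%, 38.2% and 31.7% in the Thbs2KO libraries. Plod1 made up 24.6%, 20.8% and 20.5% in WT and 33.2%, 31.2% and 40.3% in Thbs2KO. Neither share overlapped between the groups, while that of Plod2 did, at 22.5% to 33.5% in WT and 28.0% to 30.6% in Thbs2KO. These shares draw on the same read counts as the separate values of Plod1 and Plod3 and are no independent support for them. With Plod1 higher and Plod3 lower in every Thbs2KO library, the ratio of Plod1 to Plod3 could not overlap, whatever length was used. The ratio of Plod1 to Plod3 was 0.464, 0.456 and 0.389 in WT and 0.912, 0.818 and 1.27 in Thbs2KO, a mean of 0.436 ± 0.0410 in WT and 1.00 ± 0.238 in Thbs2KO (SD, n = 3). The ratio of Plod2 to Plod3 did not overlap either: the WT libraries gave 0.426, 0.733 and 0.509 and the Thbs2KO libraries 0.832, 0.800 and 0.881, whereas that of Plod1 to Plod2 did. The summed read count of the 3 hydroxylases ran from 833.3 to 885.2 CPM in WT and from 897.9 to 949.6 CPM in Thbs2KO, also without overlap.

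The order of the hydroxylase levels depended on the length used. By the union of annotated exons it ran Plod3, Plod2, Plod1 in WT, at 83.0 ± 6.01, 45.6 ± 10.3 and 36.1 ± 2.41 CPM per kilobase (SD, n = 3), where Plod2 and Plod1 overlapped. In Thbs2KO, Plod3 and Plod1 were level, at 58.4 ± 4.85 and 57.6 ± 8.66, with Plod2 at 48.8 ± 1.73. By the longest coding transcript Plod1 stood above Plod3 in Thbs2KO, at 120.2 ± 18.1 against 80.4 ± 6.68 CPM per kilobase, and below it in WT, at 75.3 ± 5.03 against 114.3 ± 8.29. Under both lengths, which rescale the same read counts, the share of Plod3 was lower in every Thbs2KO library than in any WT library. That of Plod1 was higher.

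Within the lysyl oxidases the change in make-up was smaller. Lox held 69.4%, 69.2% and 66.1% of the summed level in WT and 71.8%, 70.5% and 75.0% in Thbs2KO. Loxl2 held 10.5%, 13.2% and 15.2% in WT and 10.2%, 10.3% and 7.73% in Thbs2KO. Neither share overlapped between the groups, though the Loxl2 share of WT replicate 1 lay close to those of Thbs2KO replicates 1 and 2. The ratio of Loxl2 to Lox was 0.151, 0.191 and 0.230 in WT and 0.142, 0.146 and 0.103 in Thbs2KO, and that of Loxl1 to Lox was 0.158, 0.147 and 0.153 in WT and 0.127, 0.139 and 0.137 in Thbs2KO, both without overlap. The ratios of Loxl3 to Lox, Loxl4 to Lox and Loxl2 to Loxl3 did overlap. That of Loxl2 to Loxl3 was 1.21, 2.09 and 1.92 in WT and 1.28, 1.23 and 1.17 in Thbs2KO. Loxl1, at 10.1% to 10.9% and 9.11% to 10.2%, Loxl3, at 6.33% to 8.65% and 6.59% to 8.37%, and Loxl4, at 0.549% to 1.03% and 0.417% to 1.02%, overlapped. In WT the level of Loxl2, 232.9 ± 32.0 CPM per kilobase, came next after Lox by its mean. It overlapped with Loxl1 at 188.8 ± 21.7 and lay above Loxl3 at 139.0 ± 30.4. In Thbs2KO Loxl2 and Loxl1 did not differ beyond their spread, at 153.3 ± 4.46 and 161.4 ± 31.0 (SD, n = 3). Loxl4 was last in both groups, at 13.8 ± 3.50 and 12.0 ± 3.78 CPM per kilobase.

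**Figure D3:**
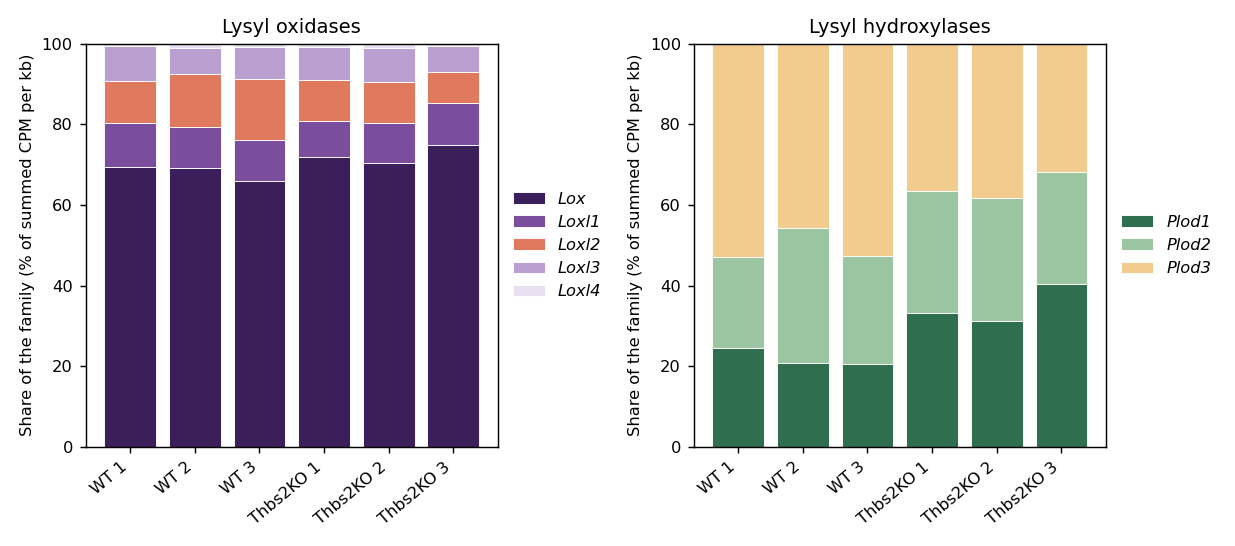
Share of each gene in the summed level (CPM per kilobase of exon) of its family, in percent, for each of the 6 libraries, lysyl oxidases on the left and lysyl hydroxylases on the right. The Plod3 segment is 45.7% or more in the WT libraries and 38.2% or less in the Thbs2KO libraries, while Lox fills 66.1% to 75.0% of every left-hand bar.

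Loxl2 has a second, partial copy nearby on chromosome 14, and reads assigned to that copy were seen in Thbs2KO libraries only. The copy is the unprocessed pseudogene Gm21451, whose transcript matched the Loxl2 transcript without a mismatch over 2348 bases. The stretch in which they part is printed because only reads that reach past it can tell the 2 transcripts apart at that end. It joins exon 12 (chr14:69690134-69690270) to exon 13 (chr14:69692314-69692425) in Loxl2, and chr14:69471859-69471995 to chr14:69477396-69477606 in Gm21451, both on the plus strand. Lower case is shared, capitals differ, and both come from GENCODE M21 transcripts (GRCm38).
Loxl2: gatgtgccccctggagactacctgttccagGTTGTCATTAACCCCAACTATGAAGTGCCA
Gm21451: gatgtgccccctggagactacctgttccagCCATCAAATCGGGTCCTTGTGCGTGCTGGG
Gm21451 had 0 expected counts in all 3 WT libraries and 38.4, 22.5 and 49.2 in Thbs2KO replicates 1, 2 and 3. Its neighbour Gm16867, annotated as protein-coding, had 0 in all 3 WT libraries and 1097, 1001 and 922.2 expected counts in the Thbs2KO libraries. Gm27177, an antisense gene that shares 301 bases (5.57%) of the Loxl2 exons, had 1, 3 and 0 in WT and 159.4, 162.2 and 216.0 in Thbs2KO.

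These 3 genes were chosen after their values were seen. The labels do not say whether WT and Thbs2KO hosts share a strain background at this stretch, and its part in the values of Loxl2 and its neighbours was not tested. They passed the test over all genes (edgeR, Benjamini-Hochberg adjusted p = 0.0347 for Gm21451, 0.000245 for Gm16867 and 0.00297 for Gm27177). Against a floor of 3 counts over the WT group, Gm16867 was at least 1135-fold higher and Gm21451 at least 41.4-fold higher in Thbs2KO. Gm21451 amounted to 0.13% to 0.299% of the sum of Loxl2 and Gm21451 counts in the Thbs2KO libraries. Loxl2 counts were whole numbers in the WT libraries and not whole in the Thbs2KO libraries; RSEM gives a value that is not whole where it divides reads between genes. With the counts of Loxl2, Gm21451 and Gm27177 summed, the log2 fold change was -0.58 (edgeR, Benjamini-Hochberg adjusted p = 0.0776), and with Gm16867 added as well it was -0.50 (adjusted p = 0.116). Only Gm21451 matched Loxl2 at 90% identity over 300 bases. Whether any reads of Gm16867 belong to Loxl2 was not tested. Entpd4 and Entpd4b, a further pair of copies in the same stretch of chromosome 14, had log2 fold changes of 0.75 and 0.71 (edgeR, Benjamini-Hochberg adjusted p = 0.0369 and 0.0258). R3hcc1, looked at beside them, was lower in every Thbs2KO library, with a log2 fold change of -0.32 (edgeR, Benjamini-Hochberg adjusted p = 0.166). Entpd4, Entpd4b and R3hcc1 were also looked at after the values of this stretch were seen.

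**Figure D4:**
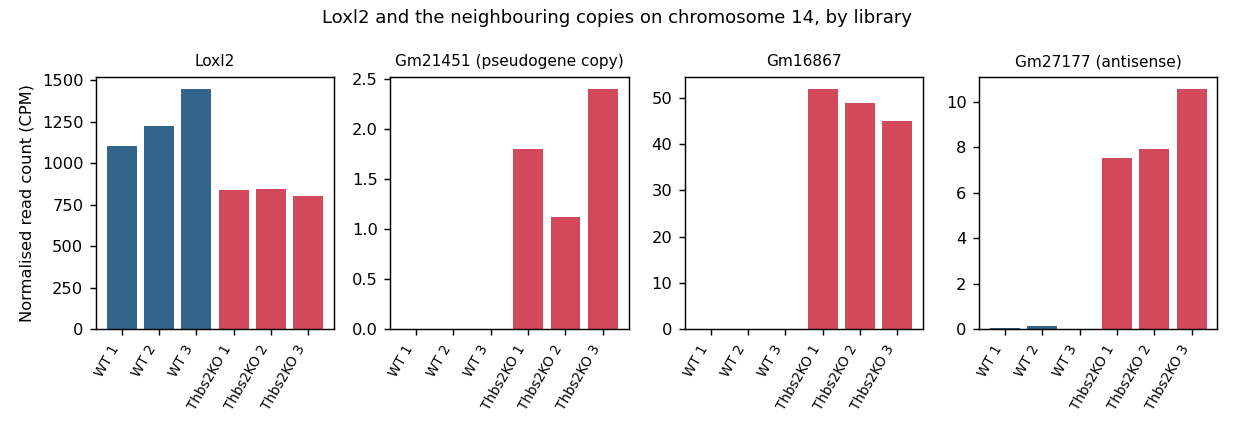
Normalised read count (CPM, linear axes from 0 with a separate scale for each gene) of Loxl2, its pseudogene copy Gm21451, the neighbouring gene Gm16867 and the antisense gene Gm27177 in each library. Loxl2 is lower in the 3 Thbs2KO libraries, and the other 3 genes are at or near 0 in the WT libraries.

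The other enzyme genes share less sequence with their neighbours, and no 2 of the 8 were 90% identical over 300 bases. Htra2, on the opposite strand, shares 535 bases with Loxl3 exons (11.6%) and had a log2 fold change of 0.18. Znhit1 shares 529 bases with Plod3 exons (11.7%) and had a log2 fold change of -0.04 at 20.5 to 22.7 CPM. The gene model Gm38391 shares 346 bases with Plod2 exons (6.42%) and had 10 to 33 counts. The library kit did not mark strand, so reads in these shared stretches cannot be told apart.

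The partners of these enzymes were taken from lists by role: 48 genes, of which 42 passed the filter. By edgeR 0 of the 42 passed the test over all genes. At an unadjusted p under 0.05, 3 were higher and 9 lower, beside 5.72% and 7.56% of all genes. DESeq2 called 2 higher and 5 lower, beside 2.22% and 2.93%. By limma-voom 0 of the 42 were called, beside 147 of all 13590 genes. The groups did not overlap for 4 higher and 10 lower, beside 9.37% and 10.3% of all genes. The median log2 fold change of the 42 was -0.05.

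Among the fibrillar collagens, the main substrates, 10 of 11 were tested, with 5 positive and 5 negative values and a median of 0.05. Col24a1 and Col27a1, chains of minor fibrillar collagens, had the smallest p. Col24a1 measured 12.1, 17.4 and 14.4 CPM in WT and 20.6, 21.4 and 24.3 CPM in Thbs2KO (edgeR, Benjamini-Hochberg adjusted p = 0.154). Col27a1 measured 13.6, 16.3 and 11.2 CPM in WT and 8.27, 10.7 and 7.92 CPM in Thbs2KO (edgeR, Benjamini-Hochberg adjusted p = 0.223). Neither pair of groups overlapped. DESeq2 called Col24a1 higher and Col5a1, chosen after its values were seen, lower.

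Of the elastin genes, 8 of 8 were tested, with 4 positive and 4 negative values and a median of 0.24. Eln, elastin itself, was scarce, at 0.775, 1.75 and 1.30 CPM in WT and 4.16, 2.69 and 11.7 CPM in Thbs2KO. Thbs2KO replicate 3 was the highest, and the log2 fold change was 2.27 (SE 0.614; edgeR, Benjamini-Hochberg adjusted p = 0.17; DESeq2 adjusted p = 0.00461). Fbln5, which tethers elastin and lysyl oxidases to microfibrils, measured 178.4, 172.7 and 135.0 CPM in WT and 101.0, 105.0 and 141.6 CPM in Thbs2KO, with overlap.

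Of the genes that activate or dock lysyl oxidases, 7 of 8 were tested, with 1 positive and 6 negative values and a median of -0.10. Fmod, the small proteoglycan fibromodulin, which binds collagen and lysyl oxidase, measured 30.3, 55.0 and 88.4 CPM in WT and 17.8, 18.6 and 9.97 CPM in Thbs2KO. The Thbs2KO libraries were all below the lowest WT library, with a log2 fold change of -1.90 (SE 0.423; edgeR, Benjamini-Hochberg adjusted p = 0.11; DESeq2 adjusted p = 0.000104). Bmp1, the protease that cleaves the Lox propeptide and procollagen, measured 542.5, 521.5 and 517.9 CPM in WT and 446.5, 465.1 and 445.9 CPM in Thbs2KO, a log2 fold change of -0.22 (SE 0.068; edgeR, Benjamini-Hochberg adjusted p = 0.228; DESeq2 adjusted p = 0.0269).

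In the copper supply list 4 of 5 genes were tested, with 3 positive values, 1 negative and a median of 0.10. Atox1, the copper chaperone that delivers to the secretory pathway, measured 38.0, 33.6 and 34.6 CPM in WT and 30.02, 32.59 and 29.87 CPM in Thbs2KO. Slc31a1, the copper importer, measured 73.5, 82.9 and 78.9 CPM in WT and 86.5, 79.0 and 89.8 CPM in Thbs2KO. The groups were apart for Atox1 and overlapped for Slc31a1 (edgeR, Benjamini-Hochberg adjusted p = 0.386 and 0.626).

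The list headed lysyl hydroxylase complexes had 2 positive and 6 negative values in 8 tested, with a median of -0.17. This list is broader than those complexes and includes prolyl 3-hydroxylase genes such as P3h1. Fkbp10, a prolyl isomerase that supports telopeptide hydroxylation by the Plod2 product, measured 525.8, 551.4 and 535.6 CPM in WT and 448.6, 452.4 and 436.4 CPM in Thbs2KO. The groups lay well apart for a small difference, a log2 fold change of -0.27 (SE 0.068; edgeR, Benjamini-Hochberg adjusted p = 0.141; DESeq2 adjusted p = 0.00239). P3h1, a prolyl 3-hydroxylase, measured 192.0, 199.9 and 192.6 CPM in WT and 164.9, 167.9 and 163.6 CPM in Thbs2KO, also without overlap (log2 fold change -0.24; edgeR, Benjamini-Hochberg adjusted p = 0.161; DESeq2 adjusted p = 0.0181).

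In the list of hydroxylysine glycosylation and Plod3 trafficking 4 of 6 were tested, with 3 positive values, 1 negative and a median of 0.03. Colgalt1, the galactosyltransferase that acts before the Plod3 product, measured 312.7, 327.2 and 354.0 CPM in WT and 276.4, 284.6 and 289.5 CPM in Thbs2KO, without overlap (log2 fold change -0.22; edgeR, Benjamini-Hochberg adjusted p = 0.263). Vipas39, part of the complex that delivers the Plod3 product to its compartment, measured 25.5 to 30.3 CPM in WT and 27.5 to 31.8 CPM in Thbs2KO. Slc23a2, an ascorbate transporter and the only tested gene of its list, measured 30.4 to 42.1 CPM in WT and 32.1 to 34.4 CPM in Thbs2KO.

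**Figure D5:**
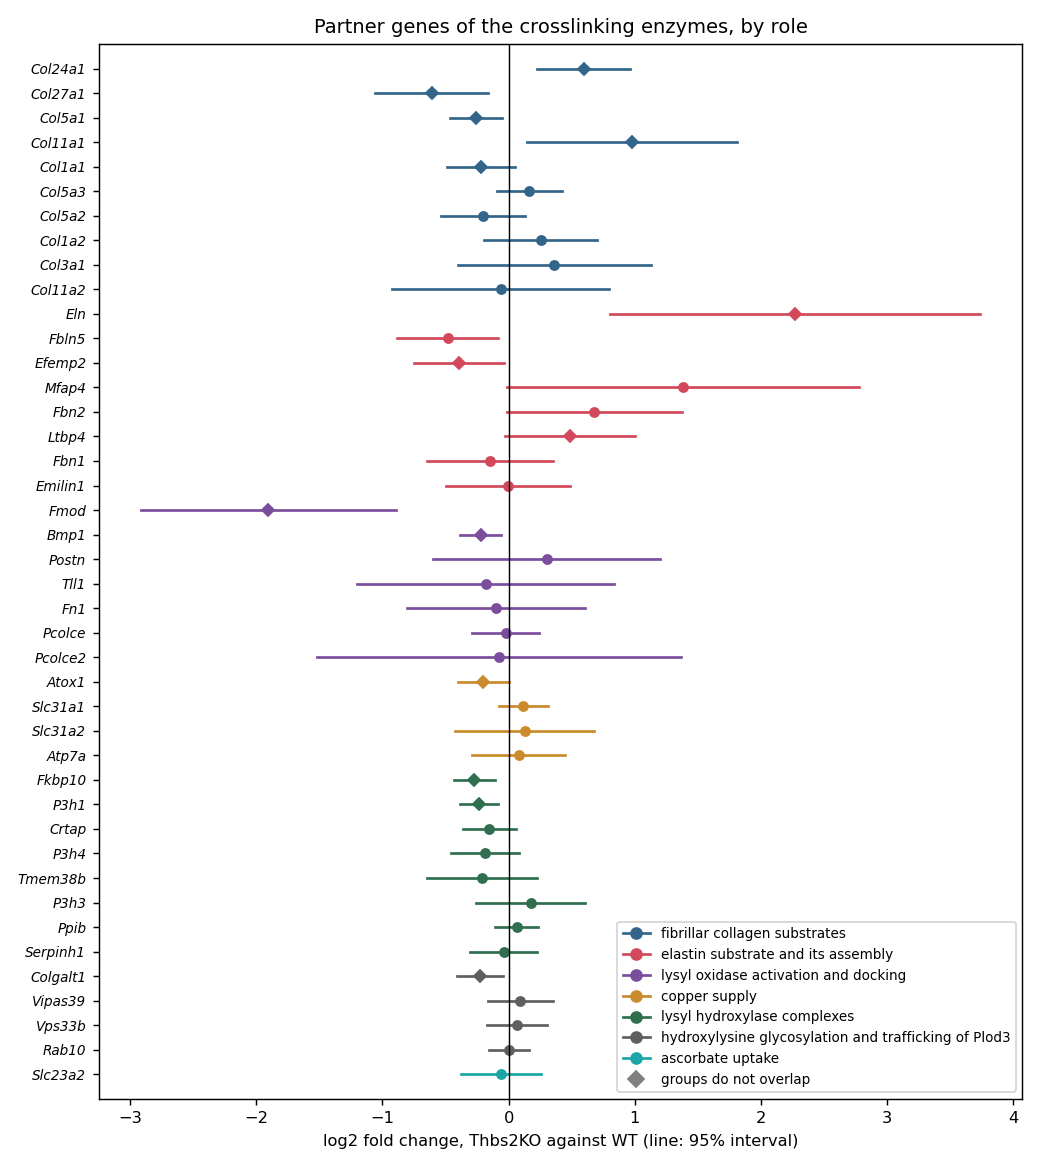
Log2 fold change (marker) and 95% interval (line) of the 42 tested partner genes, coloured by role. Diamonds are genes whose groups do not overlap: 4 to the right of 0 and 10 to the left.

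The genes most like each enzyme gene over the 6 libraries were found by the root mean square (RMS) difference of log2 CPM, each gene centred on its own mean, among 10190 tested genes that had a symbol other than a predicted name and averaged 5 CPM or more. This is a description of nearness, and the difference between the genotypes is part of it. Loxl2 was nearest to Stk38l, a kinase gene of the Hippo pathway family, then to Abtb2 and Cdk17 (RMS differences 0.024, 0.046 and 0.049). Plod1 was nearest to Entpd4b, one of the chromosome 14 copies named above, then to Tgfbr1, a TGF-beta receptor, and Fnip2 (0.063, 0.064 and 0.065). Plod3 was nearest to Myh9, nonmuscle myosin, then to Ehd1 and Plk2 (0.042, 0.050 and 0.052). Lox was nearest to Acadvl, Txndc15 and Dcun1d3 (0.014, 0.019 and 0.025), and Plod2 to D1Ertd622e, Med13l and Hacd2 (0.024, 0.044 and 0.048). Loxl1 was nearest to Col8a1, Stox2 and Pkd1 (0.048, 0.050 and 0.050), and Loxl3 to Insyn1, Gnptab and Fam171a1 (0.051, 0.056 and 0.064). Loxl4 had no neighbour as close, with Ifrd2, Rrp12 and Pde3b at 0.115, 0.118 and 0.122.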

How the data were processed

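The authors deposited 1 table of expected counts, the reads per gene estimated by RSEM and not scaled between libraries. The submitters' processing notes name mm10 as the build and list RSEM, STAR 2.7.3a and Trimmomatic 0.39, with neither an RSEM version nor an annotation release. RSEM divides reads that match several genes, so near-identical copies share uncertainty. In each library 3.80% to 3.88% of values held fractions, and all were rounded to whole numbers for the tests.

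Genes passing filterByExpr were scaled with TMM and tested in R 4.3.3 with edgeR 4.0.16, by its robust quasi-likelihood fit of genotype alone, with Benjamini-Hochberg adjustment over 13590 genes and a threshold of 0.05. Standard errors come from the F statistic. DESeq2 1.42.0 and limma-voom (limma 3.58.1) were alternatives, with other scalings, filters, a replicate block and libraries left out. The steps were tested on simulated counts. Levels per kilobase use GENCODE M21 exons (GRCm38), joined by Ensembl identifier for 99.96% of tested genes. Log2 CPM used a prior count of 2. Sequence matches were sought with BLAST+ 2.17.0. Figures were drawn with matplotlib 3.10.9.

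All 8 enzyme genes are named. From each role list the genes passing the test (up to 3) or else the 2 with the smallest p are named, and for each enzyme gene the 3 nearest in pattern. The enzyme genes and lists were chosen with earlier results of these data known. Counting error is only part of the spread between libraries.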

Additional observations from a re-analysis of the deposited data

How the results depend on the processing

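The log2 fold changes of Loxl1, Loxl2, Plod1 and Plod3 kept their direction over 18 alternatives. Of these, 2 were chosen after seeing the data: Loxl2 summed with Gm21451 and Gm27177, without and with Gm16867. The labels do not set the pair of libraries left out or the pair summed, which stand out in these same data. The cause of the changes below was not tested. By edgeR 148 genes were called, 75 higher and 73 lower. DESeq2 gave 699 (301 and 398), no filter 245 (132 and 113), WT replicate 1 and Thbs2KO replicate 3 both left out 1519 (651 and 868), Thbs2KO replicates 1 and 2 summed 40 (28 and 12), and 1 library left out 38 to 397 (25 to 146 and 13 to 251). Enzyme genes called numbered 1 higher and 2 lower with DESeq2, 1 higher with no filter, 1 higher and 3 lower with both libraries left out, and 0 higher and 0 to 1 lower with 1 left out; of the partner genes 7, 0, 8 and 0 to 1 were called. The log2 fold change of Lox was 0.029 with Thbs2KO replicates 1 and 2 summed and -0.19 to 0.033 with 1 library left out. With both libraries left out that of Loxl3 was 0.0061, that of Plod2 -0.025, and the difference in the share of Loxl4 0.039 percentage points. With 1 left out log2 fold changes ran from -0.29 to 0.014 for Loxl3, -0.42 to 0.028 for Loxl4 and -0.054 to 0.28 for Plod2, and the share differences from -0.63 to 0.56 points for Loxl3, -0.15 to 0.15 for Loxl4 and -0.54 to 4.93 for Plod2. Share differences of Loxl2, Plod1 and Plod3 were -3.54, 12.96 and -14.95 points, and -4.80 to -2.44, 10.28 to 14.80 and -17.32 to -13.09 with 1 left out.

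A replicate block called 30 genes (20 and 10) and 0 enzyme genes, with a Thbs2 log2 fold change of -2.86 (edgeR, Benjamini-Hochberg adjusted p = 0.0784). Libraries of 1 number share only that number: their deviations correlated at -0.29, 0.17 and -0.33.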
